A study of Rattus norvegicus with 6 samples.

Results

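A set of 10 genes of the calcium release apparatus of the sarcoplasmic reticulum were followed in rat heart: Ryr2, Casq2, Pln, Sln, Trdn, Jph2, Hrc, Asph, Fkbp1b and Atp2a2. These are 10 of the 17487 gene symbols in the count table and were chosen by symbol, with the counts of a symbol summed over its rows. The choice was centred on Ryr2 because its transcript was much lower in the hearts of treated rats, so that difference chose the set and is given as a description without a test. The other members were named for their function with results of these data already known, and nothing here is offered as support for a change of the set as a whole. The animals were 6 adult male Wistar rats, an outbred strain, with 1 heart library per rat. In the doxorubicin group 3 rats had weekly tail vein injections of doxorubicin hydrochloride at 3.75 mg/kg for 4 weeks. In the control group 3 rats had the vehicle, 0.9% sodium chloride, in the same way. The labels give no genetic change, no age beyond adult, no chamber of the heart and no interval after the last injection.

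In a heart muscle cell each beat opens calcium channels of the surface membrane, and the calcium that enters opens ryanodine receptors, the release channels of the sarcoplasmic reticulum. Calsequestrin stores calcium inside that compartment, triadin and junctin tie calsequestrin to the channel, and junctophilin holds the reticulum close to the surface membrane. A calcium pump then refills the store, and the small membrane proteins phospholamban and sarcolipin restrain it.

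Total counts per library ranged from 2219685 to 3508282, and levels are given as CPM, counts rescaled to a common library total after adjustment by the trimmed mean of M-values (TMM). Values by library are listed in the order of replicates 1, 2 and 3 of each group. A floor of 3 counts corresponds to 0.852 to 1.33 CPM, and floors cover counting error only. Summed cardiomyocyte markers stood at 99925 to 109245 CPM in control and 76738 to 90857 CPM in doxorubicin libraries, with all 10 markers detected. Without Myh6, the marker with the lowest log2 fold change, the sums were 73546 to 90388 and 64627 to 73743 CPM. They overlapped only narrowly, the highest doxorubicin sum being 73743 and the lowest control sum 73546 CPM. Of the 10 markers, 8 had log2 fold changes below 0 and 2 above, against 4407 of 9205 tested symbols below 0. Myh6 was at -0.73, Ckm at -0.68, Tnni3 at -0.45 and the highest, Mybpc3, at 0.19. None passed the adjusted threshold used below. Fewer heart muscle cells and less RNA per cell cannot be told apart in whole tissue. The summed level of the 6 macrophage markers was 112.6 to 132.1 CPM in control and 143.8 to 215.9 CPM in doxorubicin libraries, and its part in the values below was not tested. Ventricular markers summed to 23270 to 38028 CPM in control and 24606 to 26747 CPM in doxorubicin libraries, nearly all of it from the light chain genes Myl2 and Myl3. Irx4, of the same list, went from 43.8 ± 11.6 to 106 ± 29.7 CPM (SD, n = 3) without overlap. Its log2 fold change was 1.28 (SE 0.24, adjusted p 0.0833 in edgeR's test), while Myl2, Myl3 and Hey2 overlapped. Endothelial, fibroblast and smooth muscle marker sums overlapped between the groups, and the skeletal muscle markers, with Tnnt3 at 0 in every library, summed to at most 7.80 CPM. Control library 1 stood apart in several values. Its marker sum without Myh6 was 90388 CPM, against 73546 and 74147 CPM in control libraries 2 and 3. Its ventricular sum was 38028 CPM, against 23270 and 27577 CPM there. Ckm was at 10494, 5822 and 6893 CPM in the control and 4181, 5977 and 4337 CPM in the treated hearts. Myh6 went the other way, with control library 1 the lowest control. How far the lower marker sums rest on this library was not tested.

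Of the 10 members, 8 passed the filter on low counts, and Sln and Fkbp1b did not. The 8 were tested with edgeR's quasi-likelihood test over 9205 symbols. One member, Ryr2, was past the Benjamini-Hochberg adjusted threshold of 0.05, which 0.0543% of all tested symbols passed. Because Ryr2 chose the set, nothing is read from that count. With scaling by total counts only, when either control library 1 or 3 was left out, and when either of doxorubicin libraries 1 and 3 was, the count was 0 for the members and 0 for all tested symbols. Without control library 2, 4 of 9425 symbols passed and Ryr2 was not among them. Between the groups the values did not overlap for 2 of the 8 tested members, Ryr2 below and Atp2a2 above control, against 13.4% of all tested symbols, 7.06% lying below and 6.39% above. Nothing is read from this count either, because Ryr2 chose the set and the counts of Atp2a2 may be incomplete. Log2 fold changes of the tested members were above 0 for 4 and below 0 for 4, with a median of -0.02 against 0.02 over all tested symbols.

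**Figure D1:**
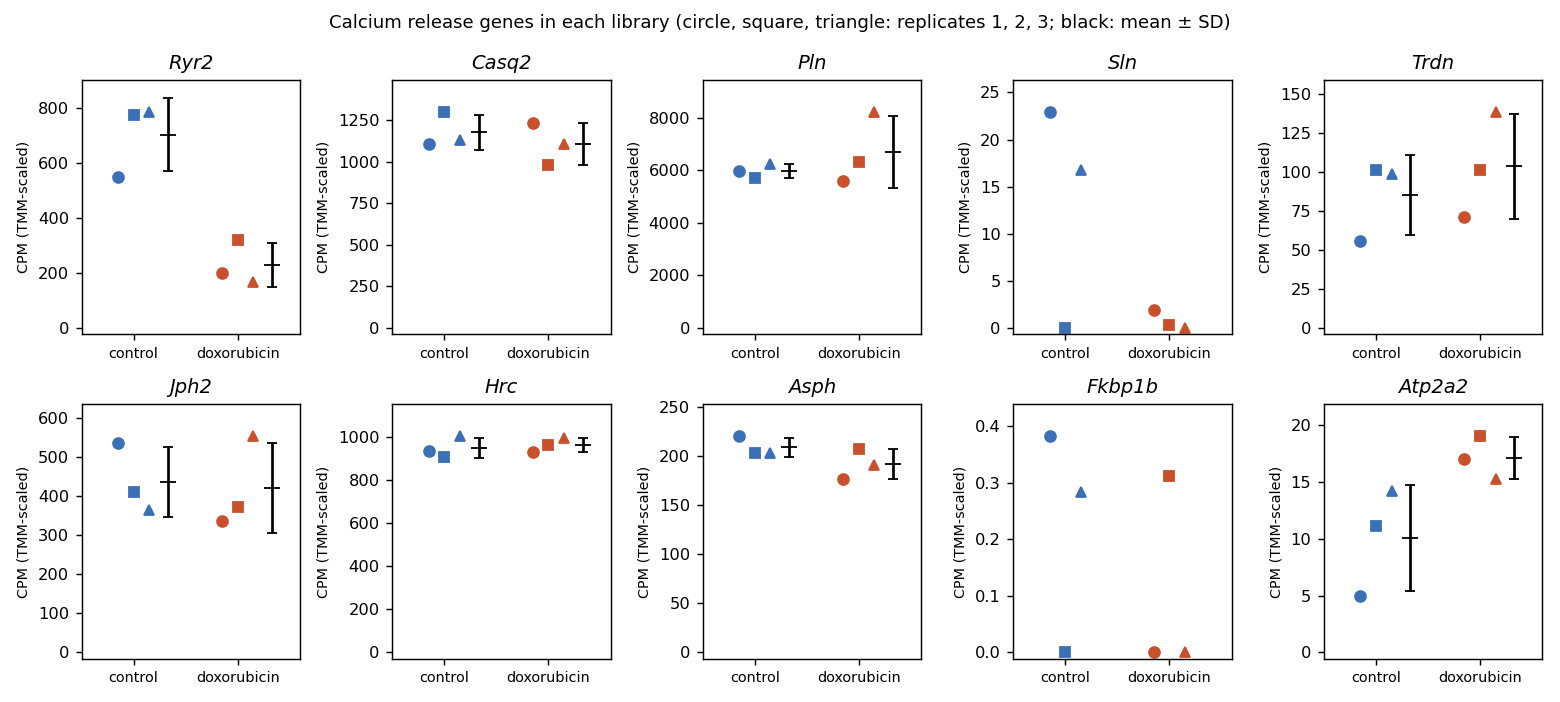
Level of each of the 10 genes in CPM (vertical axis, linear, separate scale per gene) in the 3 control (blue) and 3 doxorubicin (orange) libraries; circle, square and triangle are replicates 1, 2 and 3, and black bars are mean ± SD, left out for Sln and Fkbp1b, which have libraries at 0. The doxorubicin values of Ryr2 lie between 166.2 and 320.1 CPM, below the lowest control value of 548.7 CPM, while those of Casq2, Pln, Trdn, Jph2, Hrc and Asph overlap with control.

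Ryr2 encodes the ryanodine receptor of heart muscle, the channel through which stored calcium leaves the reticulum. Its level was 548.7, 774.8 and 784.6 CPM in the control hearts and 200.9, 320.1 and 166.2 CPM in the treated hearts. Each doxorubicin heart was below each control heart, and library 2 was the highest of the 3 treated hearts. The log2 fold change was -1.62 (SE 0.25), which is a level of 0.326 times control. These values rest on 1437, 1744 and 2763 counts in the control and 626, 1026 and 564 in the treated hearts. Ryr2 stood on 2 rows of the table, of which 1 held 8158 of its 8160 counts, and how reads shared between rows were treated is not given in the sources used here, so the counts may be incomplete. The log2 fold change was -1.76, -1.53 and -1.53 without control libraries 1, 2 and 3, and -1.53, -1.93 and -1.42 without doxorubicin libraries 1, 2 and 3. With scaling by total counts only it was -1.55.

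Ratios of counts within a library need no scaling between libraries and set Ryr2 beside its partners. They describe libraries and do not compare the levels of different genes, whose lengths differ. For every 100 Casq2 counts there were 49.6, 59.7 and 69.6 Ryr2 counts in the control hearts and 16.3, 32.8 and 15.1 in the treated hearts. The groups did not overlap. For every 100 Hrc counts the Ryr2 counts averaged 74.2 ± 13.8 in the control and 23.9 ± 8.53 in the treated hearts (SD, n = 3), and for every 100 Trdn counts they averaged 849 ± 118 and 240 ± 105. The ratios to Pln and to Jph2 also did not overlap between the groups, with log2 ratios of the group means of -1.72 and -1.53. Against the summed cardiomyocyte markers Ryr2 had 5.02, 7.75 and 7.64 counts per 1000 in the control hearts and 2.36, 3.52 and 2.17 in the treated hearts. The log2 ratio of these means was -1.34, and the marker sum includes Myh6, which was also lower in the treated hearts on average. Against the same marker sum, Pln, Hrc, Asph and Atp2a2 were higher in each treated heart than in every control heart. Their log2 ratios of means were 0.49, 0.33, 0.18 and 1.05. For Casq2, Trdn and Jph2, whose groups overlapped, they were 0.22, 0.59 and 0.28. The marker sum was itself lower in the treated hearts, which raises each of these ratios. The share of all symbols that separate in this way is not given, so nothing is read from which members did. The Ryr2 ratios use the values that chose the set, and the part of heart muscle content in all these ratios was not tested.

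**Figure D2:**
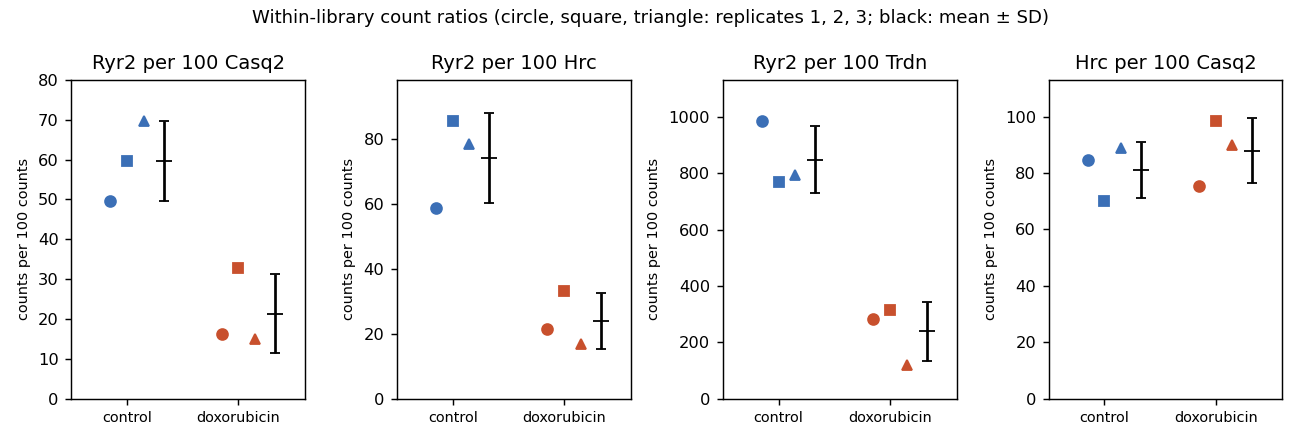
Counts of one gene per 100 counts of another in the same library (vertical axes, linear), for Ryr2 against Casq2, Hrc and Trdn and for Hrc against Casq2; symbols are replicates and black bars are mean ± SD. The 3 Ryr2 panels show doxorubicin libraries below all control libraries, while Hrc per 100 Casq2 overlaps, at 69.9 to 88.7 in control and 75.5 to 98.3 in doxorubicin libraries.

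Casq2 encodes cardiac calsequestrin, the calcium-binding store protein. Its level was 1106, 1297 and 1128 CPM in the control hearts and 1231, 977 and 1104 CPM in the treated hearts. The groups overlapped, doxorubicin library 2 being the lowest of the 6 and control library 2 the highest. Casq2 had a fold change of -0.09 on the log2 scale (SE 0.18) and an adjusted p of 0.918 in edgeR's test. Casq2 and Ryr2 encode physically coupled proteins, so their start regions are shown side by side, from RefSeq on GRCr8, with 250 bases before and 50 after the annotated start. Of the 10 members 8 have an entry, and Sln and Asph have none. The Ryr2 window is chr17:63081277-63081576 (plus strand) and the Casq2 window chr2:192214306-192214605 (plus strand); capitals mark matches on either strand to the GC box (GGGCGG) or to the consensus of the muscle transcription factor MEF2.
Ryr2: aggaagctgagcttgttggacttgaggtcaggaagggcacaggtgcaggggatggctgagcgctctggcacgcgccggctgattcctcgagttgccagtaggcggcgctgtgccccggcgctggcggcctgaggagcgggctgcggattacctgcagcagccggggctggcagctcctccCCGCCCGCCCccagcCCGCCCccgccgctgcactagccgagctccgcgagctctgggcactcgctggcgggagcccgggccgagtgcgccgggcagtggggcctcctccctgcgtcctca
Casq2: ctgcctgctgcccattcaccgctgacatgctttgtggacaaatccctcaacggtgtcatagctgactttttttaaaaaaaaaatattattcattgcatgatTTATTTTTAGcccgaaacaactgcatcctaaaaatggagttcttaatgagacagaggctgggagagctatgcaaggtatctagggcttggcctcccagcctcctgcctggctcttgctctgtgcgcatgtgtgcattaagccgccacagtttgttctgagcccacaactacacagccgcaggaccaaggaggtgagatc
The 2 windows differ in base composition, with 73% G and C for Ryr2, above 94.9% of 27457 promoter windows of the same length, and 47.7% for Casq2, above 33.8% of them. The Ryr2 window holds 3 matches to GGGCGG, of which a pair overlap, and Casq2 holds none. Such a match was present in 34.9% of all windows and in 3 of the 8 members, Ryr2, Fkbp1b and Atp2a2. The MEF2 consensus matched once in Casq2, in no other member and in 3.37% of all windows. No member window held the TATA box letters TATAAA, present in 14.3% of all windows. The same was true of a letter string bound by GATA factors, AGATAA, which 11.3% of all windows held. A letter string bound by TEAD factors, CATTCC, was found in 13.9% of all windows and likewise in no member. A match describes letters in this window only.

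Trdn encodes triadin, a membrane protein that links calsequestrin to the release channel. Its level was 55.8, 100.8 and 98.8 CPM in the control hearts and 70.9, 101.1 and 138.2 CPM in the treated hearts. The groups overlapped, with control library 1 the lowest and doxorubicin library 3 the highest. For Trdn the log2 fold change came to 0.28 (SE 0.27, adjusted p 0.822 in edgeR), and to 0.06 without control library 1. Without doxorubicin library 3 it was 0.02 and without doxorubicin library 1 it was 0.49, so single libraries set its size.

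Asph, whose locus encodes junctin as well as an aspartate beta-hydroxylase, lay at 219.9, 203.0 and 203.3 CPM in the control hearts. In the treated hearts it lay at 176.5, 207.2 and 191.0 CPM. Only doxorubicin library 2 reached into the control range, and the log2 fold change came to -0.12 (SE 0.17, adjusted p 0.887 in edgeR). Counts per gene do not separate the junctin transcript from the enzyme transcript. Hrc, the histidine-rich calcium-binding protein of the reticulum lumen, varied least of the 8 tested members, at 934, 907 and 1000.5 CPM in the control hearts and 929, 961 and 994 CPM in the treated hearts. Its log2 fold change was 0.02 (SE 0.17, adjusted p 0.985 in edgeR).

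Fkbp1b encodes FKBP12.6, an immunophilin that binds the release channel. It had 1, 0 and 1 counts in the control hearts and 0, 1 and 0 in the treated hearts. All 6 values are under the floor of 3 counts, so no difference was detectable at this depth. Its paralog Fkbp1a, which encodes FKBP12, was at 401 ± 51.6 CPM in the controls against 328 ± 27.4 CPM in the treated rats (SD, n = 3). The Fkbp1a groups did not overlap, and its log2 fold change of -0.29 (SE 0.18) had an adjusted p of 0.719 in edgeR's test.

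Jph2 encodes junctophilin 2, which bridges the reticulum and the surface membrane. Its level was 535, 410 and 363 CPM in the control hearts and 336, 371 and 552 CPM in the treated hearts. The lowest and the highest library were both from treated rats. In log2 units Jph2 differed by -0.05 (SE 0.22, adjusted p 0.972 in edgeR), which became 0.05 when libraries were scaled by total counts only. It was 0.12 without control library 1, 0.09 without doxorubicin library 1, 0.04 without doxorubicin library 2 and -0.29 without doxorubicin library 3, so no direction is given for it.

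Atp2a2 encodes SERCA2, the pump that returns calcium to the store. It had 13, 25 and 50 counts in the control hearts and 53, 61 and 52 counts in the treated hearts. As CPM these were 4.96, 11.1 and 14.2 in control and 17.0, 19.0 and 15.3 in doxorubicin libraries, so that each doxorubicin heart was above each control heart. The log2 fold change was 0.74 (SE 0.35), and it did not pass edgeR's test (adjusted p 0.615). Without control library 1 the log2 fold change was 0.43, and without control library 3 it was 1.10. Atp2a2 stood on 3 rows of the table, with all of its 254 counts on 1 of them, and heart muscle is known to express it abundantly, so its counts may be incomplete. Among symbols on several rows, 48.6% of 599 had 0 counts in every library, against 24.6% of 16888 symbols on 1 row. The median total count over the 6 libraries was 1 for symbols on several rows and 97 for symbols on 1 row. The Atp2a2 values are therefore read as counts of this table and not as the level of the pump transcript.

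Pln encodes phospholamban, the inhibitor of that pump. Its level was 5994, 5724 and 6229 CPM in the control hearts and 5581, 6323 and 8224 CPM in the treated hearts. The lowest and the highest were both doxorubicin libraries. The log2 fold change came to 0.17 (SE 0.19, adjusted p 0.861 in edgeR), and without doxorubicin library 3 it was 0.00240. Pln held the bulk of the members' counts, with 63.6%, 60.7% and 63.3% in the control hearts and 65.3%, 68.1% and 72.2% in the treated hearts. Those shares did not overlap between the groups, and since the members' counts include Ryr2, a lower Ryr2 raises the share of each other member. All 10 members together took 0.838% to 0.987% of the counts of control and 0.867% to 1.19% of the counts of doxorubicin libraries.

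Sln encodes sarcolipin, another small inhibitor of the pump, which in rodent heart is mainly made in the atria. It had 60, 0 and 59 counts in the control hearts and 6, 1 and 0 in the treated hearts. The groups overlapped because control library 2 was at 0, which allows up to 1.33 CPM there. Too few libraries held enough counts of Sln for it to pass the filter before the test. With all 6 libraries and no filter on low counts, its adjusted p was 0.706 in edgeR and 0.794 in DESeq2. Atrial markers did not follow one order with Sln: Myl7, the atrial light chain gene, had 429, 10 and 10 counts in the control hearts and 20, 14 and 7 in the treated hearts. Control library 1 was thus high in both Sln and Myl7, and control library 3 was high in Sln with Myl7 at the level of control library 2. Over the 7 atrial markers, Bmp10 had at most 2 counts, and the summed level was 198.2 to 695.4 CPM in control and 309.8 to 3299 CPM in doxorubicin libraries, most of it Nppa. The part of atrial tissue in the Sln values was not tested.

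Gene span was set beside the members because fold changes rose with span in these libraries: the median log2 fold change was -0.09 in the 2247 shortest genes and 0.11 in the 899 longest, of 8987 tested genes with a span. Ryr2 spans 585615 base pairs in RefSeq's GRCr8 annotation, longer than 99.6% of them. Trdn spans 455305 and Asph 212587 base pairs, longer than 99.1% and 96.1%, and their log2 fold changes were 0.28 and -0.12. Among the 899 longest, 1 gene had a lower log2 fold change than Ryr2. Of 20 other genes with long coding sequences that were listed, 11 were in the table and 8 were tested. All 8 had log2 fold changes above 0, from 0.11 for Ank3 to 0.50 for Fat1, against 4798 of all 9205 tested symbols. They were listed by coding sequence and not by span. Dync1h1 and Lrp1, spanning 65743 and 80558 base pairs, are not among the 899 longest, which begin at 115878. With a correction for the trend with span the log2 fold change of Ryr2 was -1.70. Control library 1 had the lowest sum over the long coding genes, 678 CPM against 1296 to 1428 CPM in the other libraries, and it also had the lowest control values of Ryr2 and Trdn.

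**Figure D3:**
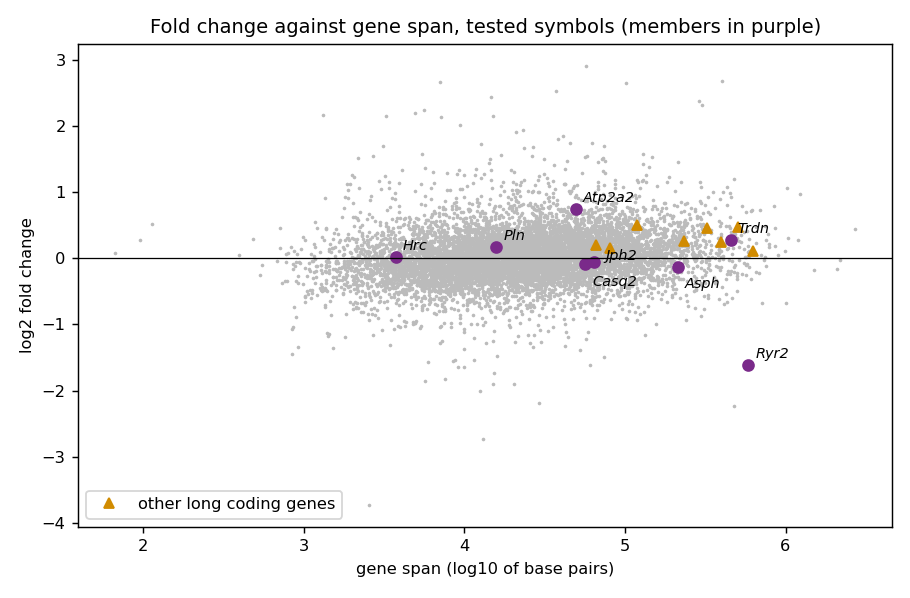
Log2 fold change, doxorubicin against control (vertical axis), against gene span (horizontal axis, log10 of base pairs) for tested symbols with a span (grey), the 8 tested members (purple) and 8 other long coding genes (orange triangles). Ryr2 stands at -1.62 among the 899 longest genes, whose median is 0.11, while Trdn, of like span, stands at 0.28. The orange genes were listed by coding sequence and not by span.

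The other genes of calcium cycling were taken from 4 lists holding 65 genes, of which 61 were in the table and 46 were tested. None of the 46 passed the adjusted threshold in edgeR, and none did among the 57 with a p-value in DESeq2, where 0.567% of all symbols passed. At an unadjusted p under 0.05 there were 5 of 46 in edgeR and 5 of 57 in DESeq2, where 5.54% of all symbols were at that level. In edgeR 2 of the 5 were higher and 3 lower, against 8.1% of all tested symbols at that level, 4% higher and 4.11% lower. Values did not overlap between the groups for 6 of the 46, against 13.4% of all. The median log2 fold change was -0.02 against 0.02 over all tested symbols.

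Among genes of calcium entry and removal, Cacna1c, the pore subunit of the L-type channel whose current opens the ryanodine receptor, had 155 ± 23.6 CPM in the controls against 165 ± 11.0 CPM in the treated rats (SD, n = 3), or 0.09 in log2 fold units (SE 0.18). Rrad, a small GTPase that restrains that channel, had 652 ± 89.7 and 482 ± 101 CPM, a log2 fold change of -0.43 (SE 0.20, adjusted p 0.611 in edgeR), and its groups overlapped. Slc8a1, the sodium-calcium exchanger gene, stood on 9 rows and was listed at 0 in all 6 libraries. Heart muscle is known to express it, so no level is read from that 0. Of the 18 genes in that list 9 were tested, and their log2 fold changes ran from -0.49 to 0.43.

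Among regulators of the release channel 20 of 23 genes were tested. Speg, a kinase gene of the junction between reticulum and surface membrane, had 159 ± 8.88 CPM in the controls against 210 ± 12.3 CPM in the treated rats (SD, n = 3), and its groups did not overlap. Its log2 fold change was 0.40 (SE 0.17, adjusted p 0.550 in edgeR), and its counts came from 2 rows. Camk2d, a calmodulin-dependent kinase that phosphorylates the channel, had 55.4 ± 7.39 and 76.5 ± 32.4 CPM, a log2 fold change of 0.46 (SE 0.26, adjusted p 0.683 in edgeR). For S100a1, a calcium sensor that binds the channel, the log2 fold change was -0.36 (SE 0.23). The groups overlapped for both Camk2d and S100a1.

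Among genes of reticulum and dyad structure, Orai1, a calcium entry channel gated by the state of the store, had the smallest adjusted p of the 46, at 0.371 in edgeR. Its level was 54.2 ± 13.4 CPM in the controls against 33.7 ± 0.632 CPM in the treated rats (SD, n = 3), or -0.69 in log2 fold units (SE 0.22) with no overlap. Sypl2, a triad membrane protein gene, had 6, 7 and 9 counts in the control hearts and 31, 17 and 17 in the treated hearts, a log2 fold change of 1.34 (SE 0.46, adjusted p 0.420 in edgeR). Jph1, the junctophilin better known from skeletal muscle, had 0.72 on the log2 fold scale (SE 0.34, adjusted p 0.617 in edgeR) on 23 to 72 counts per library. Tmem38a, a potassium channel gene of the reticulum, differed by -0.22 in log2 units (SE 0.20), and Srl, the sarcalumenin gene, by 0.34 (SE 0.48) on 12 to 62 counts from 2 rows. The groups overlapped for Jph1, Tmem38a and Srl.

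Among sister isoforms, Atp2a3, another pump gene, had 35.8 ± 3.27 CPM in the controls against 24.5 ± 0.969 CPM in the treated rats (SD, n = 3) with no overlap, a log2 fold change of -0.55 (SE 0.21, adjusted p 0.499 in edgeR). For Itpr2, which encodes an inositol trisphosphate receptor, another kind of release channel, the log2 fold change was -0.01 (SE 0.31). Itpr1 stood on 3 rows and was listed at 0 in all libraries. Ryr1 and Ryr3 were not analysed here, so the share of Ryr2 among ryanodine receptor transcripts is not given.

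**Figure D4:**
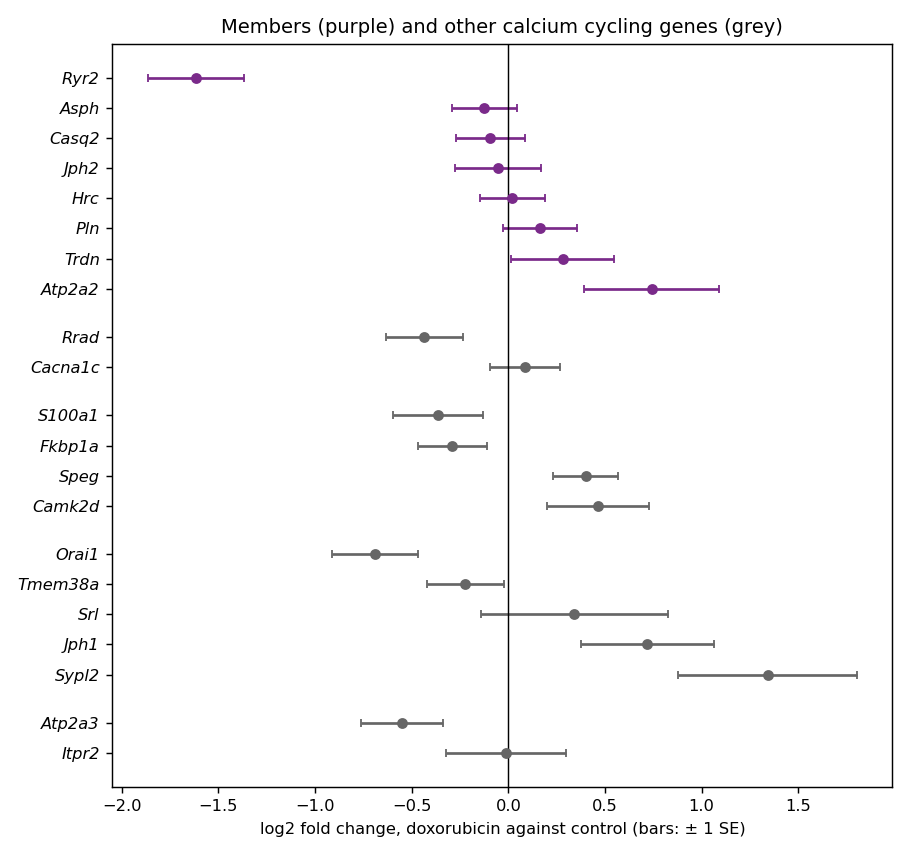
Log2 fold change, doxorubicin against control (horizontal axis), with bars of 1 SE, for the 8 tested members (purple) and 13 other calcium cycling genes (grey) grouped by list. Ryr2 lies at -1.62, while the other members lie between -0.12 and 0.74 and the other genes between -0.69 and 1.34.

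The profile of Ryr2 over the 6 libraries was compared with that of every other tested symbol outside the set with a mean of at least 50 CPM, 3323 in all, by the root mean square difference of log2 CPM centred on each gene's mean. The measure takes in the group difference for which Ryr2 was chosen and the order of libraries within each group, so the result is a description. The 5 nearest were Auts2l1 (0.34), Ckb (0.44), Myh6 (0.46), Lingo4 (0.47) and Plxnd1 (0.48). Ckb encodes the brain-type creatine kinase, Myh6 the alpha myosin heavy chain, and Plxnd1 a semaphorin receptor. In all 5, as in Ryr2, doxorubicin library 2 was the highest of the 3 doxorubicin libraries, which follows in part from the choice by profile. Myh6 ran at 18856, 26379 and 28539 CPM in the control hearts and at 11449, 20902 and 12112 CPM in the treated hearts, with control library 1 the lowest control as for Ryr2. Myh6 is close in sequence to Myh7, and how shared reads were counted is not given in the sources used here. The other members were farther from Ryr2, from 0.83 for Asph to 1.28 for Atp2a2. By this measure 22.5% of all other tested symbols lay nearer to Ryr2 than Asph did, and 78.6% lay nearer than Trdn.

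**Figure D5:**
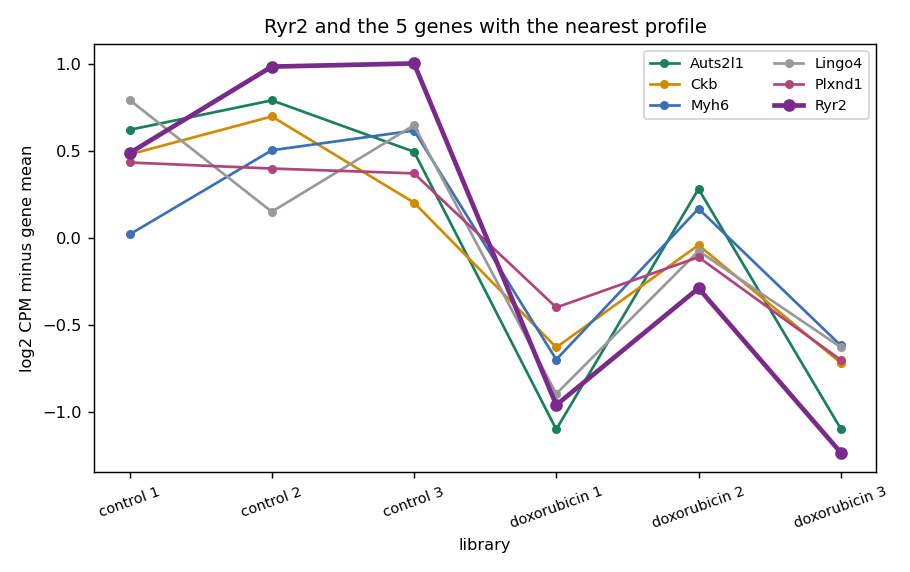
Log2 CPM minus the gene's mean (vertical axis) in each of the 6 libraries (horizontal axis) for Ryr2 (thick purple) and the 5 nearest genes; lines only join the points of a gene. All 6 genes have doxorubicin library 2 as the highest of the doxorubicin libraries, and Ryr2 is lowest in doxorubicin library 3, at 166.2 CPM. The 5 genes were picked for a profile like that of Ryr2, so a shared order of libraries is not a separate result.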

How the data were processed

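Polyadenylated RNA from heart tissue was measured in 6 libraries, 1 per rat. The authors deposited raw counts per gene symbol in 1 table. Per the submitters' processing notes, FastQC, Trimmomatic, STAR, HTSeq and the build mRatBN7.2 were used; versions, counting mode, use of strand and annotation are not given in the sources used here. The table has 18473 rows under 17487 symbols, with 599 symbols on several rows, whose counts were summed. Every row names a gene.

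The members and gene lists were chosen with earlier results of these data known. Groups came from the sample titles. Differences were tested in R 4.3.3 with the quasi-likelihood method of edgeR 4.0.16, with treatment as the only term, TMM, robust dispersion and filterByExpr (minimum count 10, minimum total 15), adjusted by Benjamini-Hochberg over 9205 symbols. The SE is the absolute log2 fold change over the square root of F. P-values set the group difference against the spread between 3 animals per group, with dispersion estimates that draw on all tested symbols. Log2 CPM used a prior count of 2. Alternatives used DESeq2 1.42.0 and limma 3.58.1. The script was tested on simulated counts. Same-numbered libraries come from different animals, and the labels describe no pairing. Closest replicates, control libraries 2 and 3, had a chi-square of 4.11 for each degree of freedom, more than sampling noise.

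Named genes were all members, calcium cycling genes with an unadjusted p under 0.05, 13 calcium cycling genes fixed by symbol (1 of them is not reported here), and the 5 genes nearest in profile to Ryr2. Long coding genes and cell markers were named where a member's value turned on them. Levels per coding length were planned but no protein or transcript lengths were used here, so levels of different genes are not ranked. Promoter sequences and gene spans are from RefSeq on GRCr8, another build than the counts, and serve only for sequence and span.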

Additional observations from a re-analysis of the deposited data

How the results depend on the processing

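All 15 alternatives had been planned and were run. The number of members past the adjusted threshold, 1 with the settings of the report, was 0 when libraries were scaled by total counts only, and from 0 to 1 in the fits that each left out 1 library. In the 5 fits with a count of 0, no symbol of the whole table passed. Without control library 2 the member counted was Sln, which passed the filter on low counts there only through the controls where it is high, so nothing is read from it. Elsewhere the member counted was Ryr2, which chose the set. The cause of these changes was not tested, and the fits with a library left out have fewer samples. The log2 fold change of Ryr2 ranged from -1.93 to -1.42 over the alternatives. With the replicate number as a block it was -1.65, and 1 member passed, among 13 of 9205 tested symbols. Between same-numbered libraries the correlations of deviations from the group means were 0.02, -0.19 and -0.06. Libraries of different number were not compared in this way, and a shared batch was not tested. The other calcium cycling genes past the threshold numbered 0 under every alternative, with 2 to 6 of 46 or 57 tested at an unadjusted p under 0.05, against 5.54% to 9.53% of all symbols. Jph2 reversed to 0.047 with total counts only, 0.0048 in limma voom with sample quality weights, 0.12 without control library 1, 0.089 without doxorubicin library 1 and 0.038 without doxorubicin library 2, against -0.29 without doxorubicin library 3. Hrc reversed to -0.0064 in voom with those weights. Both lay within 1 SE of 0 throughout these reversals. Asph, Atp2a2, Casq2, Pln and Trdn kept their sign in all 15 alternatives, and none passed the threshold in any. Under scaling by total counts the median of all symbols was 0.10 on the log2 fold scale in place of 0.02. Fkbp1b, Sln and Atp2a2 had no more than 61 counts in any library. With all 6 libraries Fkbp1b and Sln did not pass the filter on low counts.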
